A study of Mus musculus with 9 samples.

Results

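Interferon-stimulated genes are genes whose transcription rises when a cell senses interferon, and 37 of them were chosen by name. Of these, 35 had an array probe that a RefSeq accession paired with the symbol, among 20258 such symbols on the array, and all 35 were among the 20282 genes and unnamed transcripts tested. Mx1 and Mx2 were not analysed here. By role the 35 were 4 transcription factors, 4 nucleic acid sensors, 3 members of the Ifit family, 5 of the Oas family, 6 of the Isg15 system and antiviral effectors, 4 interferon-induced GTPases, 2 PYHIN proteins and 7 others.

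RNA of sorted C57BL/6 thymocytes was measured on 9 one-colour Agilent arrays, 1 per group, so no group had a replicate. All mice carried Tie2-Cre, which is active in endothelial cells and in the blood cells that descend from them. Control mice were Brd1+/+, Tie2-Cre, and conditional knockout (CKO) mice were Brd1flox/flox, Tie2-Cre, in which Brd1, a chromatin reader of histone acetyltransferase complexes, can be removed where Cre acts. Cells double positive for CD4 and CD8 (DP), CD4 single positive (CD4SP) and CD8 single positive (CD8SP) came from both genotypes at 8 weeks of age. CD4SP cells without surface TCRβ came from the CKO alone, also at 8 weeks. CD8SP cells of both genotypes were also sorted at 14 weeks from mice that carried OT-I, a transgene for 1 T cell receptor that recognises its peptide on MHC class I. Whether the RNA of an array came from 1 mouse or a pool is not given in the sources used here.

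Levels below are log2 signals relative to the 75th percentile of the probes of the same array, so a difference of 1 is 2-fold, and levels of different genes are not compared. Values are given control first and CKO second in each pair. A probe counted as detected on an array where the scanner software marked it well above background. Of the 35 genes, 25 were detected on all 9 arrays, and where only some arrays of a group detected a gene, its fitted difference uses the undetected values as they stand and its size is uncertain. Cd4 followed the sort gates. Cd8b1 did so too, except that on the TCRβ-negative array it lay between the other CD4SP arrays and the CD8SP arrays. Cd4, the co-receptor for MHC class II, lay at 6.22 and 6.49 on the DP arrays, 6.54 and 6.38 on the CD4SP arrays, 3.50 and 3.28 on the CD8SP arrays, 3.15 and 3.14 on the OT-I arrays and 6.19 on the TCRβ-negative array. Cd8b1, a chain of the co-receptor for MHC class I, lay at 6.65 and 6.33 on the DP arrays, 1.67 and 0.54 on the CD4SP arrays, 5.64 and 5.73 on the CD8SP arrays, 5.37 and 5.46 on the OT-I arrays and 3.24 on the TCRβ-negative array. Brd1 itself lay at -0.79 and -0.33 on the DP arrays, -1.09 and -0.98 on the CD4SP arrays, -1.37 and -0.73 on the CD8SP arrays, -1.34 and -0.73 on the OT-I arrays and -0.58 on the TCRβ-negative array. It was thus higher on the array labelled CKO in each of the 4 pairs (genotype difference 0.45 ± 0.19 SE, limma adjusted p = 0.475). Where its probe lies relative to the floxed part is not given in the sources used here, so Brd1 did not check the genotype labels, and CKO below means the arrays labelled so.

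Type I interferon binds the receptor Ifnar1 and Ifnar2, whose kinases phosphorylate transcription factors, Stat2 among them. Stat2 and Irf9 are parts of a complex that binds the interferon-stimulated response element (ISRE) and switches on genes that sense, degrade or trap viral nucleic acids and proteins. Interferon gamma acts through another receptor, with Irf1 and the GTPases among its targets. In the thymus, tonic type I interferon made by epithelial and other cells is known to act on thymocytes late in maturation, after the double-positive stage.

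Of the 37 genes, 28 had a promoter window (250 bases before to 50 after the start) in the RefSeq table of build GRCm38.p6. The core GAAA, any 2 bases, GAAA, searched on both strands, so that it may read TTTC, any 2 bases, TTTC, was found in 18 of the 28 (64.3%), against 3.99% of 27025 genes with a window of the same length. The site TTCNNNGAA, bound by Stat dimers, was found in 7 of 28 (25%), against 9.55% of all genes. The sequences below run 5′ to 3′ in the direction of the gene and capitals mark the ISRE core, with overlapping matches run together. They show genes that rose between stages (Isg15, Ifit1, Ifit3, Apol9b, Bst2), Oas1a, whose differences missed the call, the gene set apart by its level in CD8SP cells (Ifi211), and Stat2, whose level hardly varied.
Isg15: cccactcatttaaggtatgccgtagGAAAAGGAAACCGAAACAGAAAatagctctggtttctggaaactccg
Ifit1: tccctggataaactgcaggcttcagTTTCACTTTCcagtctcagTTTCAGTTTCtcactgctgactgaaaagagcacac
Ifit3: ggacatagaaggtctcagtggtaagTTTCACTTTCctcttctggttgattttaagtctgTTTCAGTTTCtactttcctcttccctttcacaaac
Oas1a: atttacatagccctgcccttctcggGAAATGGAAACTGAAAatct
Apol9b: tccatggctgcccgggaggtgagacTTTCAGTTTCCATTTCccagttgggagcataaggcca
Bst2: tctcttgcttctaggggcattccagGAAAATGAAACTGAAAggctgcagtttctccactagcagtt
Ifi211: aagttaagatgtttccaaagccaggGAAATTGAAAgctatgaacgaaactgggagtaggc
Stat2: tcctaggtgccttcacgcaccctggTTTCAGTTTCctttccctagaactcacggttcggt
In GRCm38.p6 the Isg15 stretch is chr4:156200850-156200921 (minus strand), with 3 overlapping cores, and it ended 32 bases before the start. The Ifit1 and Ifit3 stretches lie on the same chromosome, at chr19:34640760-34640838 (plus strand) and chr19:34583348-34583441 (plus strand), each with 2 separate cores. Oas1a is at chr5:120907526-120907570 (minus strand), Apol9b at chr15:77729010-77729071 (plus strand) and Bst2 at chr8:71537562-71537627 (minus strand), each with 2 overlapping cores. Ifi211 is at chr1:173913049-173913108 (minus strand) and Stat2 at chr10:128270251-128270310 (plus strand), with 1 core each. A match is a description of the letters. The 18 genes with the core and the 10 without had median differences of 2.38 and 2.71 between CD4SP and DP cells, and of 2.56 and 2.25 between CD8SP and DP cells, so the core was found in genes with large and with small differences alike.

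The first question was how these genes changed as thymocytes passed from the DP to the single-positive stages. They were low in DP cells and high in both CD4SP and CD8SP cells, in both genotypes. The median level of the 35 genes was 0.0077 and 1.34 on the DP arrays, 3.35 and 3.12 on the CD4SP arrays and 2.38 and 3.21 on the CD8SP arrays. For 31 of the 35, all 4 CD4SP and CD8SP arrays lay above the DP and TCRβ-negative arrays, against 12.8% of all genes tested. In the limma fit of population and genotype over the 9 arrays, 17 of 35 rose from DP to CD4SP with Benjamini-Hochberg adjusted p below 0.05, and none fell, against 2.16% of all genes called higher and 0.922% called lower. The median difference was 2.55, and 35 of 35 were positive, where the median of all genes was -0.0020. From DP to CD8SP, 13 of 35 rose and none fell, against 2.42% of all genes called higher and 1.04% called lower, and the median difference was 2.50 with 34 positive. In bulk RNA, fewer cells of a type and less RNA per cell cannot be told apart. Nothing in the labels says how many mice an array stands for, so these p-values measure only the spread between single arrays.

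**Figure D1:**
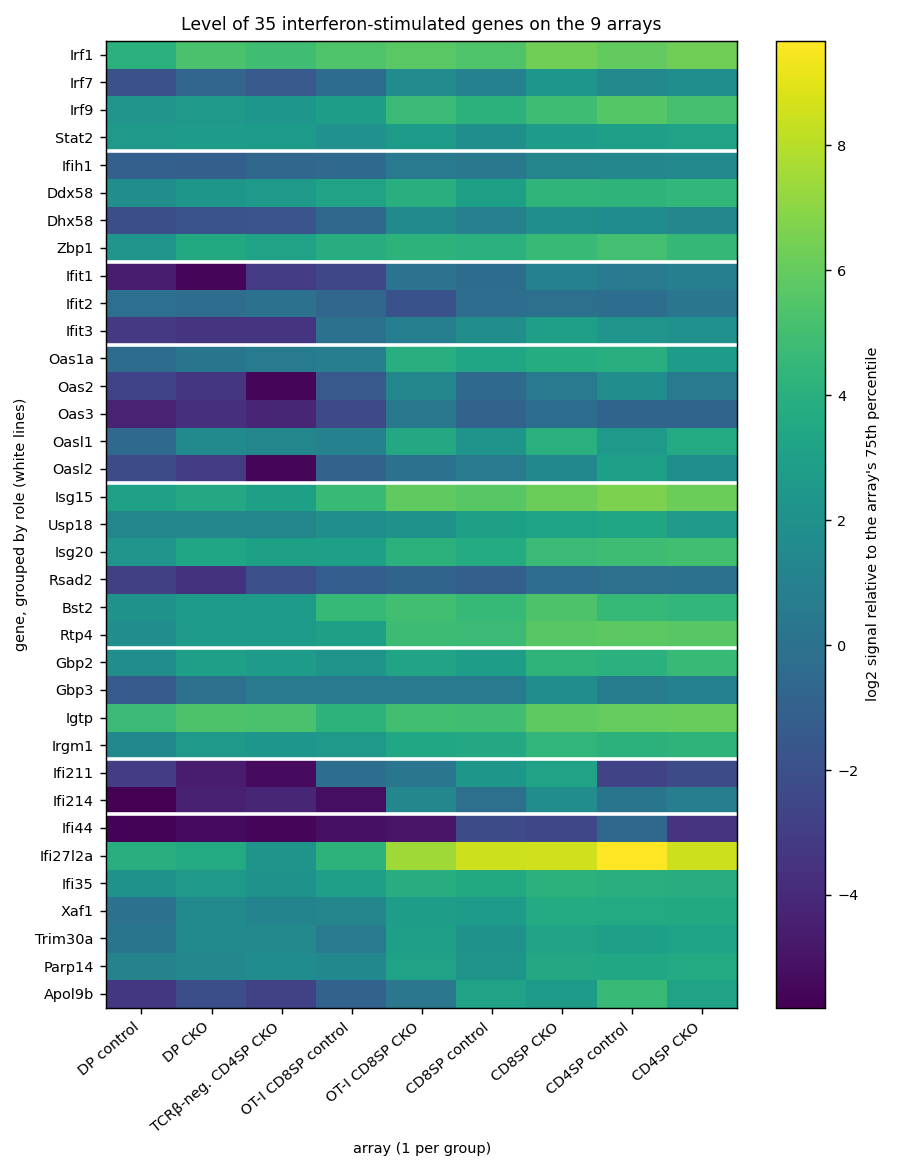
Level of each of the 35 genes (rows, grouped by role) on each of the 9 arrays (columns), as log2 signal relative to the array's 75th percentile; colours are to be compared along a row. In most rows the 3 left columns (DP and TCRβ-negative) are darker than the 4 CD8SP and CD4SP columns on the right, and the row of Stat2 is nearly even.

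Of the transcription factors, 1 of 4 rose in each comparison. Irf7, which amplifies the interferon response, lay at -1.98 and -0.75 on the DP arrays, 1.49 and 1.92 on the CD4SP arrays, 1.02 and 2.34 on the CD8SP arrays, -0.32 and 1.64 on the OT-I arrays and -1.49 on the TCRβ-negative array. It rose by 3.07 ± 0.40 (SE here and below) from DP to CD4SP (limma adjusted p = 0.0233) and by 3.04 ± 0.40 to CD8SP (adjusted p = 0.0212), and no DP array overlapped the single-positive arrays. Irf9, the DNA-binding partner of Stat2, lay at 2.28 and 2.59 on the DP arrays, 5.59 and 5.11 on the CD4SP arrays, 4.16 and 4.84 on the CD8SP arrays, 2.84 and 4.72 on the OT-I arrays and 2.30 on the TCRβ-negative array. Its differences of 2.91 ± 0.55 and 2.07 ± 0.55 missed the call (adjusted p = 0.0557 and 0.108). Irf1 differed by 1.5 ± 0.32 and 1.20 ± 0.32 without a call. Stat2 ranged over only 1.24 across the 9 arrays, with differences of 0.41 ± 0.29 and -0.34 ± 0.29.

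Of the sensors, 3 of 4 rose in CD4SP and 1 of 4 in CD8SP cells. Dhx58 (LGP2), a regulator of the RNA sensors, lay at -2.11 and -1.85 on the DP arrays, 1.74 and 1.38 on the CD4SP arrays, 0.91 and 1.88 on the CD8SP arrays, -0.55 and 1.55 on the OT-I arrays and -1.70 on the TCRβ-negative array. It rose by 3.54 ± 0.59 (limma adjusted p = 0.039) and 3.37 ± 0.59 (adjusted p = 0.0428). Ifih1 (MDA5), a sensor of long double-stranded RNA, lay at -1.06 and -1.10 on the DP arrays, 1.37 and 1.51 on the CD4SP arrays, 0.40 and 1.24 on the CD8SP arrays, -0.49 and 0.55 on the OT-I arrays and -0.71 on the TCRβ-negative array. Ddx58 (RIG-I), a sensor of RNA with a 5′ triphosphate, lay at 1.83 and 2.40 on the DP arrays, 4.27 and 4.43 on the CD4SP arrays, 3.01 and 4.33 on the CD8SP arrays, 3.11 and 3.88 on the OT-I arrays and 2.55 on the TCRβ-negative array. Both rose in CD4SP cells, by 2.53 ± 0.36 and 2.23 ± 0.35, and their CD8SP differences of 1.90 ± 0.36 and 1.56 ± 0.35 missed the call. Zbp1, a sensor of Z-form nucleic acid, differed by 1.85 ± 0.46 and 1.44 ± 0.46 without a call.

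In the Ifit family, whose proteins bind foreign RNA and block its translation, 2 of 3 rose in each comparison. Ifit3 lay at -3.21 and -3.44 on the DP arrays, 2.27 and 2.04 on the CD4SP arrays, 1.86 and 2.94 on the CD8SP arrays, 0.018 and 0.85 on the OT-I arrays and -3.45 on the TCRβ-negative array. It rose by 5.48 ± 0.43 (limma adjusted p = 0.0125) and 5.72 ± 0.43 (adjusted p = 0.00802), the smallest adjusted p of the 35 genes in both comparisons, and was detected on 1 of 2 DP arrays. Ifit1 lay at -4.54 and -5.5 on the DP arrays, 0.64 and 0.86 on the CD4SP arrays, -0.36 and 0.99 on the CD8SP arrays, -2.52 and 0.12 on the OT-I arrays and -3.08 on the TCRβ-negative array. It was not well above background on either DP array, so it was at least 17.5-fold higher in CD4SP and at least 13.0-fold higher in CD8SP cells, a bound set by the dimmest detected probe of each DP array (adjusted p = 0.0263 and 0.0293). Ifit2 did not follow them. It was detected on all 9 arrays, at -0.17 and -0.26 on the DP arrays, -0.22 and 0.29 on the CD4SP arrays, -0.27 and -0.11 on the CD8SP arrays, -0.70 and -1.89 on the OT-I arrays and 0.006 on the TCRβ-negative array, and its differences of 0.25 ± 0.44 and 0.026 ± 0.44 were below their SE. Ifit3b, a near-identical copy of Ifit3, was detected on neither DP array and was at least 15.3-fold higher in CD4SP and 14.0-fold higher in CD8SP cells, and whether the 2 probes each bind both transcripts was not tested.

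In the Oas family, some but not all of whose members make the messenger that activates RNase L, 2 of 5 rose in each comparison. The others had large differences with wide errors. Oasl2 lay at -2.27 and -3.10 on the DP arrays, 2.91 and 1.91 on the CD4SP arrays, 0.64 and 1.43 on the CD8SP arrays, -0.87 and -0.0012 on the OT-I arrays and -5.54 on the TCRβ-negative array. It rose by 5.09 ± 0.56 (limma adjusted p = 0.0178) and 3.72 ± 0.56 (adjusted p = 0.0291). Oasl1 lay at -0.52 and 1.59 on the DP arrays, 2.48 and 3.68 on the CD4SP arrays, 2.22 and 4.03 on the CD8SP arrays, 1.02 and 3.52 on the OT-I arrays and 1.32 on the TCRβ-negative array. It rose by 2.55 ± 0.37 and 2.59 ± 0.37 (adjusted p = 0.0277 and 0.0256), and in each population its CKO array was the higher one. Oas1a lay at -0.35 and 0.19 on the DP arrays, 3.89 and 2.76 on the CD4SP arrays, 3.31 and 3.77 on the CD8SP arrays, 0.82 and 3.97 on the OT-I arrays and 0.59 on the TCRβ-negative array. Oas2 lay at -2.70 and -3.35 on the DP arrays, 1.76 and 0.62 on the CD4SP arrays, -0.50 and 0.49 on the CD8SP arrays, -1.47 and 1.29 on the OT-I arrays and -5.51 on the TCRβ-negative array, and was detected on 7 of 9 arrays. Neither Oas1a (3.40 ± 0.93 and 3.62 ± 0.93) nor Oas2 (4.22 ± 0.92 and 3.03 ± 0.92) was called. Oas3 was not well above background on either DP array and was at least 5.98-fold higher in CD4SP and 7.16-fold higher in CD8SP cells, with adjusted p = 0.0756 and 0.0574 in the fit. The 2 well-detected probes of Oas1a differed by 0.94 in the CD4SP comparison, the widest spread among the 7 genes with at least 2 such probes.

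Of the Isg15 system and the antiviral effectors, 5 of 6 were called in CD4SP and 4 of 6 in CD8SP cells. Isg15, a ubiquitin-like modifier, lay at 3.02 and 3.53 on the DP arrays, 6.63 and 6.18 on the CD4SP arrays, 5.64 and 6.21 on the CD8SP arrays, 4.70 and 5.92 on the OT-I arrays and 3.01 on the TCRβ-negative array. It rose by 3.13 ± 0.42 (limma adjusted p = 0.025) and 2.65 ± 0.42 (adjusted p = 0.0344), and no array of the DP cells reached those of the single-positive cells. Rtp4, a chaperone of receptors in the Golgi, lay at 1.77 and 2.72 on the DP arrays, 5.76 and 5.63 on the CD4SP arrays, 4.73 and 5.64 on the CD8SP arrays, 3.02 and 4.83 on the OT-I arrays and 2.61 on the TCRβ-negative array. It rose by 3.45 ± 0.47 and 2.94 ± 0.47. Bst2 (tetherin), which holds budding virus at the cell surface, lay at 2.07 and 2.61 on the DP arrays, 4.56 and 4.43 on the CD4SP arrays, 4.54 and 5.37 on the CD8SP arrays, 4.55 and 4.98 on the OT-I arrays and 2.61 on the TCRβ-negative array. It rose by 2.15 ± 0.32 and 2.61 ± 0.32, and the test between CD8SP and CD4SP cells missed the threshold (0.46 ± 0.32, limma adjusted p = 0.519). Rsad2 (viperin), which makes a chain-terminating nucleotide, lay at -2.85 and -3.55 on the DP arrays, -0.11 and -0.031 on the CD4SP arrays, -1.13 and -0.26 on the CD8SP arrays, -1.16 and -0.82 on the OT-I arrays and -2.04 on the TCRβ-negative array, was detected on 1 of 2 DP arrays, and rose by 3.13 ± 0.41 and 2.50 ± 0.41. Isg20, an exonuclease, lay at 2.28 and 3.32 on the DP arrays, 4.86 and 5.00 on the CD4SP arrays, 3.71 and 4.77 on the CD8SP arrays, 2.92 and 4.13 on the OT-I arrays and 2.99 on the TCRβ-negative array, and rose in CD4SP cells alone at this threshold, by 2.13 ± 0.35. Its CD8SP difference was 1.44 ± 0.35 (adjusted p = 0.0924), and the test between CD8SP and CD4SP cells missed the threshold (-0.69 ± 0.35, adjusted p = 0.434). Usp18, which removes Isg15 and damps the receptor, differed by 1.64 ± 0.33 and 1.79 ± 0.33 without a call.

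Of the 4 GTPases, 2 rose in CD4SP and 1 in CD8SP cells. Irgm1, which acts on membranes around intracellular microbes, lay at 1.45 and 2.57 on the DP arrays, 4.13 and 4.29 on the CD4SP arrays, 3.57 and 4.40 on the CD8SP arrays, 2.54 and 3.45 on the OT-I arrays and 2.33 on the TCRβ-negative array. It rose by 2.21 ± 0.32 and 1.98 ± 0.32 (limma adjusted p = 0.0283 and 0.0352). Gbp2 lay at 1.83 and 2.91 on the DP arrays, 4.08 and 4.63 on the CD4SP arrays, 2.88 and 4.27 on the CD8SP arrays, 2.18 and 3.26 on the OT-I arrays and 2.70 on the TCRβ-negative array. It rose in CD4SP cells by 1.99 ± 0.30 (adjusted p = 0.0313), and differed by 1.20 ± 0.30 in CD8SP cells (adjusted p = 0.0981). Gbp3 (1.58 ± 0.41 and 1.96 ± 0.41) and Igtp (1.00 ± 0.31 and 0.31 ± 0.31) were not called.

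Among the other genes, Apol9b, an apolipoprotein L, had the largest CD4SP difference of the 35. It lay at -3.31 and -2.11 on the DP arrays, 4.68 and 3.10 on the CD4SP arrays, 3.11 and 2.61 on the CD8SP arrays, -0.87 and 0.35 on the OT-I arrays and -2.79 on the TCRβ-negative array. It rose by 6.60 ± 0.73 (limma adjusted p = 0.0178) and 5.57 ± 0.73 (adjusted p = 0.0209), and was well above background on 1 of the 2 DP arrays. Xaf1, an antagonist of the apoptosis inhibitor XIAP, lay at 0.0077 and 1.54 on the DP arrays, 3.69 and 3.60 on the CD4SP arrays, 2.71 and 3.71 on the CD8SP arrays, 1.23 and 2.89 on the OT-I arrays and 1.17 on the TCRβ-negative array. It rose in CD4SP cells by 2.87 ± 0.47, and its CD8SP difference of 2.44 ± 0.47 missed the call (adjusted p = 0.0554). Ifi27l2a lay at 3.96 and 3.67 on the DP arrays, 9.68 and 8.48 on the CD4SP arrays, 8.52 and 8.57 on the CD8SP arrays, 4.22 and 7.49 on the OT-I arrays and 2.19 on the TCRβ-negative array, with differences of 5.26 ± 1.01 and 4.73 ± 1.01 that missed it too (adjusted p = 0.0579 and 0.0717). Ifi44 lay at -5.68 and -5.37 on the DP arrays, -0.58 and -3.42 on the CD4SP arrays, -2.19 and -2.51 on the CD8SP arrays, -5.08 and -5.0 on the OT-I arrays and -5.61 on the TCRβ-negative array and was detected on 3 of 9 arrays. It was detected on 1 of 2 CD4SP arrays and on no DP array, and was at least 2.04-fold higher in CD8SP than in DP cells, without a call. Trim30a, Parp14 and Ifi35 differed by 1.55 to 2.35 in these comparisons and were not called.

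**Figure D2:**
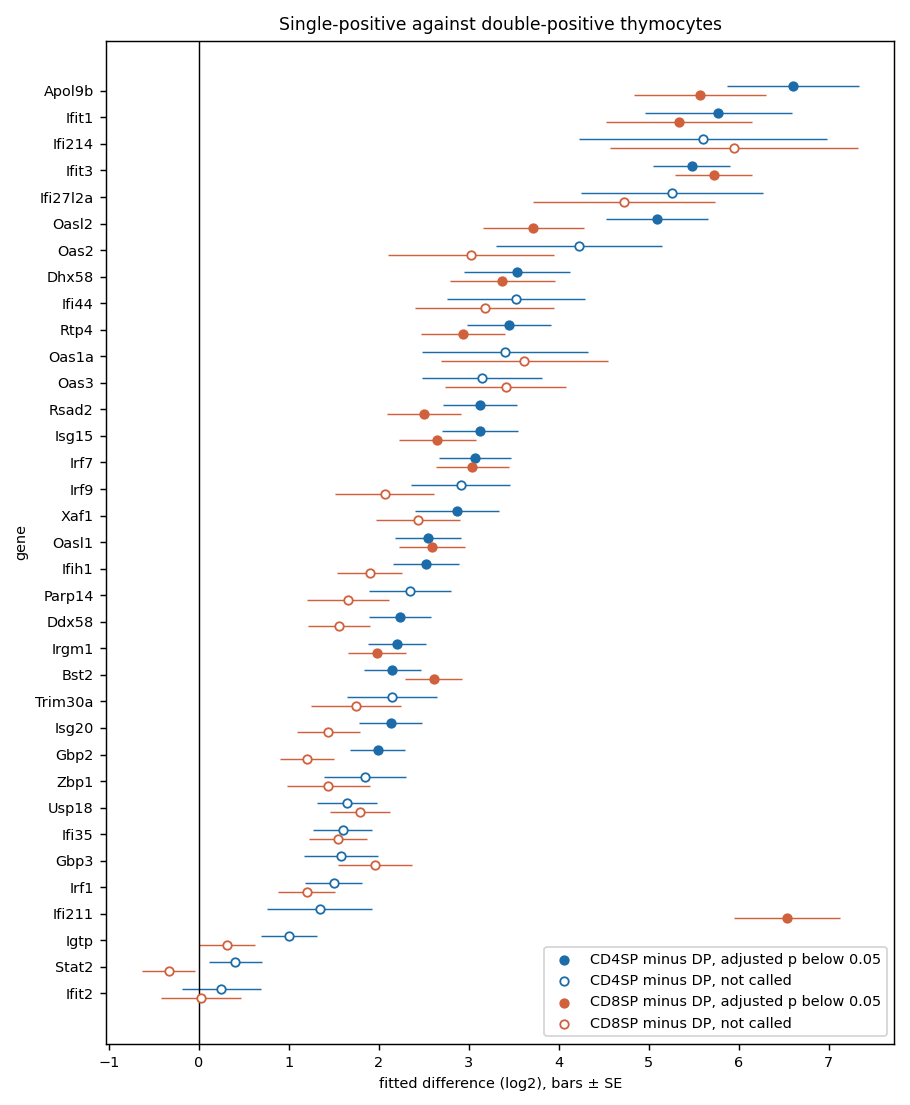
Fitted log2 difference of each of the 35 genes between CD4SP and DP cells (blue) and between CD8SP and DP cells (orange), with bars of 1 SE; filled points have an adjusted p below 0.05. All 35 CD4SP differences are above 0, and Ifi211 is the gene whose 2 points stand farthest apart.

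The calls depended on single arrays, although the differences did not change sign for most genes. With the DP control, the CD4SP control or the DP CKO array left out, 0 genes were called from DP to CD4SP, 8 without the CD4SP CKO array, 5 without either CD8SP array and 26 without either OT-I array, and the median difference stayed between 2.10 and 3.02. From DP to CD8SP the count was 0 without the DP control, DP CKO or CD8SP CKO array, 2 without the CD8SP control array and 22 without either OT-I array. Totals over all genes for the fits with an array left out are not given here, so these swings were not shown to be particular to these genes. The CD8SP pair was split over the 2 slides. With slide as a block 5 and 0 genes were called, with median differences of 2.55 and 2.34, where 210 and 0 of all genes were called higher. On the control arrays, all on slide 1, 32 of 35 were more than 2-fold higher in CD4SP than in DP cells (12.1% of all genes) and 32 of 35 in CD8SP cells (18.2%). On the CKO arrays 30 of 34 were more than 2-fold higher in CD4SP (9.07%) and 31 of 35 in CD8SP cells (9.33%).

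Genes of other cells and stages moved with these differences. Of 17 genes of mature thymocytes, such as Klf2, S1pr1 and Ccr7, 13 rose in each of the 2 comparisons, with median differences of 4.03 and 3.93. That list also holds H2-K1, H2-D1 and H2-Q7, MHC class I genes of the kind that the interferon-induced Nlrc5 drives. The list as a whole is therefore not a readout of maturation apart from interferon, and its medians without those genes were not computed. The conventional dendritic list rose in CD8SP cells, with 7 of 9 tested genes called and a median of 4.85. Its summed signal (log2 of the sum over its 10 measured genes) was 4.98 and 4.26 on the DP arrays, 6.88 and 5.87 on the CD4SP arrays, 9.45 and 9.87 on the CD8SP arrays, 8.02 and 8.08 on the OT-I arrays and 3.10 on the TCRβ-negative array. Clec9a, a marker of cross-presenting dendritic cells that carry CD8α, lay at -5.70 and -5.40 on the DP arrays, -4.89 and -5.63 on the CD4SP arrays, 0.20 and 0.92 on the CD8SP arrays, -0.27 and -1.31 on the OT-I arrays and -5.65 on the TCRβ-negative array, and Xcr1, another, was well above background on 1 array. The macrophage list had 8 of 8 tested genes positive from DP to CD4SP, with a median of 1.67 and 0 called, and 1 called higher and 2 lower from DP to CD8SP. Its summed signal was 4.34 and 4.42 on the DP arrays, 5.62 and 4.56 on the CD4SP arrays, 5.88 and 6.51 on the CD8SP arrays, 4.93 and 4.99 on the OT-I arrays and 3.88 on the TCRβ-negative array. On the CD8SP arrays Csf1r, Mpeg1 and Tyrobp were the bright genes of that sum, while C1qa lay at -4.81 and -4.37 and C1qc at -4.55 and -4.64. From CD4SP to CD8SP 26 of all 20282 genes tested were called lower. Of the 8 tested macrophage genes 3 were called lower in that comparison and 3 were positive, with a median of -2.12. The part of these cells in the differences was not tested.

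**Figure D3:**
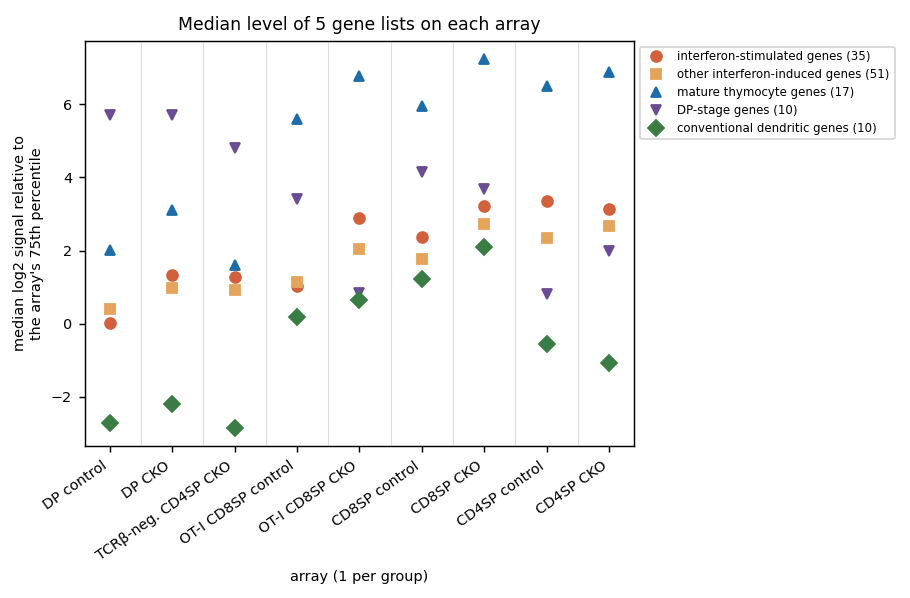
Median log2 level, relative to the array's 75th percentile, of 5 gene lists on each of the 9 arrays; levels are to be compared within a list. The interferon-stimulated genes are lowest on the DP control array (0.0077) and the OT-I control array (1.02), and the conventional dendritic genes are highest on the CD8SP arrays (1.22 and 2.09).

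Between CD8SP and CD4SP cells 1 gene passed the test. The median difference was -0.41, 9 of 35 were positive, and the call stood against 0.261% of all genes called higher. Without the CD4SP control array the median was 0.17 and 21 of 35 were positive. That gene was Ifi211, a PYHIN protein of a family that binds DNA, which lay at -3.0 and -4.57 on the DP arrays, -2.62 and -2.27 on the CD4SP arrays, 2.38 and 3.12 on the CD8SP arrays, -0.18 and 0.29 on the OT-I arrays and -5.38 on the TCRβ-negative array. It was higher in CD8SP cells by 5.19 ± 0.59 (limma adjusted p = 0.0425), well above background on both CD8SP arrays and on 1 of 2 CD4SP arrays. Against DP cells, where 1 of 2 arrays detected it, it rose by 6.54 ± 0.59 (adjusted p = 0.00928), with plain differences of 5.39 in the controls and at least 6.38 in the CKO, and its CD4SP difference was 1.34 ± 0.59 (adjusted p = 0.311). Ifi211 was thus highest on the arrays where the conventional dendritic list was highest, with the OT-I arrays between, and the part of those cells was not tested. Its call against CD4SP cells was lost when any DP, CD4SP or CD8SP array was left out, with slide as a block, under quantile normalization and with scaling to detected probes. That against DP cells was lost without either DP array or the CD8SP CKO array, and with slide as a block. Its neighbour in the family, Ifi214, lay at -5.80 and -4.38 on the DP arrays, 0.19 and 0.83 on the CD4SP arrays, -0.10 and 1.81 on the CD8SP arrays, -5.26 and 1.35 on the OT-I arrays and -4.15 on the TCRβ-negative array. It was not well above background on the DP arrays and was at least 14.8-fold higher in CD4SP and 18.8-fold higher in CD8SP cells, with adjusted p = 0.106 and 0.0851. Array by array, 34 of 35 genes were lower in CD8SP than in CD4SP cells in the controls (15 by more than 2-fold, against 8.89% of all genes), and 14 of 35 were lower in the CKO (0 by more than 2-fold, 4.61%). The control arrays shared a slide and the CKO arrays did not.

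The OT-I arrays asked how the genes stood in CD8SP cells with 1 fixed receptor. The median over the 35 genes was 1.02 and 2.89 on the OT-I arrays, against 2.38 and 3.21 on the CD8SP arrays. On the OT-I control array 32 of the 35 genes lay below both CD8SP arrays (21.7% of all genes tested), and 25 lay above both DP arrays (48.9%). In the fit the OT-I minus CD8SP difference had a median of -0.86 and was negative for 34 of 35 genes, but limma called 0 of them, against 0.197% of all genes called lower. At an unadjusted p below 0.05 there were 12, against 6.92% of all genes. The lowest adjusted p was 0.276, for Ifit3 (-1.96 ± 0.43) and Ifi211 (-2.69 ± 0.59), and Apol9b had the largest difference (-3.12 ± 0.73). Without the OT-I CKO array 1 gene, Ifi214, passed the test (adjusted p = 0.0417), but the OT-I array that remained did not detect it, and against the CD8SP control array its log2 difference was -2.84 or lower. Among the controls alone 18 of 35 were more than 2-fold lower (5.27% of all genes), and among the CKO arrays 9 of 35 (7.31%). The mature thymocyte list, with its MHC class I genes, had a summed signal of 9.71 and 11.00 on the OT-I arrays. On the CD8SP arrays the sum was 10.32 and 11.47. The MHC class I gene H2-K1 alone lay at 7.14 and 8.40 on the OT-I arrays and 8.62 and 9.67 on the CD8SP arrays. The median level of the list was 5.59 and 6.77 on the OT-I arrays and 5.94 and 7.23 on the CD8SP arrays. The OT-I transgene and age of 14 against 8 weeks cannot be told apart, and slide differed with them for the control arrays.

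CD4SP cells of the CKO without surface TCRβ are gated as single positive, and the question was on which side of the DP to CD4SP step they stood for these genes. Their levels were near those of the DP cells. The median of the 35 genes was 1.29 on the TCRβ-negative array, 1.34 on the DP CKO array and 3.12 on the CD4SP CKO array. Against the DP CKO array, 1 of 30 genes compared was more than 2-fold higher (Rsad2; 1.44% of all genes) and 1 lower (Ifi27l2a; 1.87%). Against the CD4SP CKO array, 30 of 34 were more than 2-fold lower and 0 higher, against 9.18% of all genes lower and 9.87% higher. In the fit, which lends the TCRβ-negative cells, with 1 array, both the genotype effect and the spread seen elsewhere, 5 of 35 genes fell relative to CD4SP, against 1.17% of all genes called lower, and the median difference was -2.72.

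**Figure D4:**
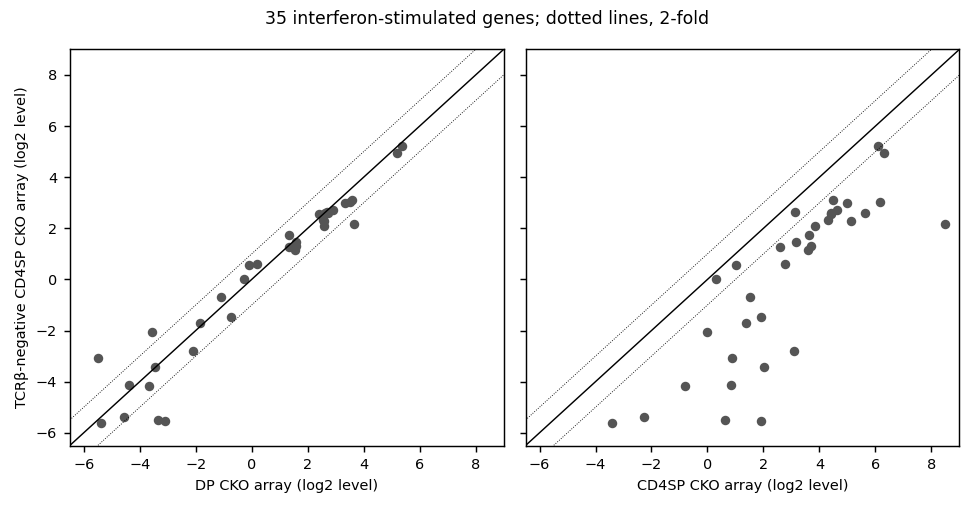
Log2 level of each of the 35 genes on the TCRβ-negative CD4SP array against the DP CKO array (left) and the CD4SP CKO array (right), all from CKO mice; the solid line marks equal levels and dotted lines 2-fold. Points lie along the line on the left and below it on the right; points below about -3 are near or under background.

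The 5 genes that fell had different roles. Irf7 fell by 3.82 ± 0.51 (limma adjusted p = 0.0351) and Isg15 by 3.62 ± 0.54 (adjusted p = 0.0463). Ifit3 fell by 5.78 ± 0.54 (adjusted p = 0.0269) and Apol9b by 6.73 ± 0.93 (adjusted p = 0.0388). Oasl2 was not well above background on the TCRβ-negative array and was at least 41.8-fold lower (adjusted p = 0.0269). The plain differences of the 2 CKO arrays, with no test, were -3.41 for Irf7, -3.16 for Isg15, -5.48 for Ifit3 and -5.89 for Apol9b. Against DP, limma called 0 of the 35 genes and 0 of all genes tested, with 1 of the 35 at an unadjusted p below 0.05 (1.64% of all genes) and a median of -0.12. The mature thymocyte list moved alike, with 11 of 17 called lower than in CD4SP cells and a summed signal of 7.95 on the TCRβ-negative array, 8.44 on the DP CKO array and 11.18 on the CD4SP CKO array. The DP-stage list, with Rag1 and Ptcra and also Cd8b1 among its 10 genes, summed to 11.07, 11.11 and 7.25 on the same arrays. Conventional dendritic genes (0 of 9 positive, 2 called lower, median -3.0) and macrophage genes (0 of 8 positive, 1 called lower, median -2.24) were also lower than in CD4SP cells, and their part was not tested. The count of 5 fell to 0 when any of the DP, CD4SP or CD8SP arrays was left out, and was 13 without either OT-I array. Totals over all genes for the fits with an array left out are not given here. The count was also 0 under quantile normalization and with slide as a block, where 0 of all genes tested were called either way. The median over the 35 genes was then -2.63 and -2.73.

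The genotype comparison asked whether the genes differed between CKO and control cells. Most were somewhat higher on the arrays labelled CKO, but none passed the test. The fitted difference had a median of 0.60, where all genes had -0.044, and was positive for 30 of 35 genes. The median was 0.37 without either or both OT-I arrays and 0.89 without either or both CD4SP arrays. limma called 0 of 35, against 0.281% of all genes called in either direction. At an unadjusted p below 0.05 there were 13, against 10.9% of all genes. Oasl1 came nearest, with 1.91 ± 0.26, adjusted p = 0.0844, and it was called with a trended variance prior (adjusted p = 0.0300), the one alternative of those run that called any of the 35. Of the other genes detected on all 9 arrays, Trim30a (1.27 ± 0.35, adjusted p = 0.305), Irf7 (1.24 ± 0.28, adjusted p = 0.236) and Xaf1 (1.02 ± 0.33, adjusted p = 0.368) were highest. Ifi214 was detected on neither DP array and not on the OT-I control array, so its size is not given here. Trim30a, of a family of ubiquitin ligases, lay at 0.21 and 1.57 on the DP arrays, 2.92 and 3.15 on the CD4SP arrays, 2.07 and 3.21 on the CD8SP arrays, 0.62 and 2.95 on the OT-I arrays and 1.48 on the TCRβ-negative array.

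The 4 pairs of arrays differed from each other. In the DP pair 11 of 31 genes compared were more than 2-fold higher in the CKO and 0 lower, against 3.89% and 5.3% of all genes, with a median of 0.54 (all genes 0.15). The DP count of 11 was 6 with scaling to detected probes, 7 with quantile normalization and 3 with normexp. In the CD4SP pair 1 of 35 was higher and 5 lower, against 3.46% and 5.25%, and the median was 0.059. In the CD8SP pair 11 of 35 were higher and 0 lower, against 6.73% and 9.21%, with a median of 0.87. In the OT-I pair 19 of 34 were higher and 1 lower, against 8.45% and 13.8%, with a median of 1.14. Over the pairs, 12 genes were higher in the CKO in 4 of 4 (10.6% of all genes tested) and 15 in 3 of 4 (22.7%). In 4 of 4 pairs 0 were lower (8.32%), and 31 were higher in both CD8SP-gated pairs (30.9%). These counts and shares over several pairs use the sign of every difference, undetected values included, unlike the counts within a pair. The OT-I pair had the widest range, from Ifit2, at -1.18, to Ifi214, which was below background on the OT-I control array and at least 4.29 higher on the log2 scale in the CKO. The 5 genes lower in the CD4SP CKO were Ifi44 (-2.83, below background on the CKO array), Apol9b (-1.58), Ifi27l2a (-1.20), Oas1a (-1.14) and Oas2 (-1.14). Of these, Ifi27l2a, Oas1a and Oas2 were 3.27, 3.15 and 2.75 higher in the CKO in the OT-I pair. The DP and CD4SP pairs each lay on slide 1 and the OT-I pair on slide 2, while the CD8SP pair crossed the slides.

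**Figure D5:**
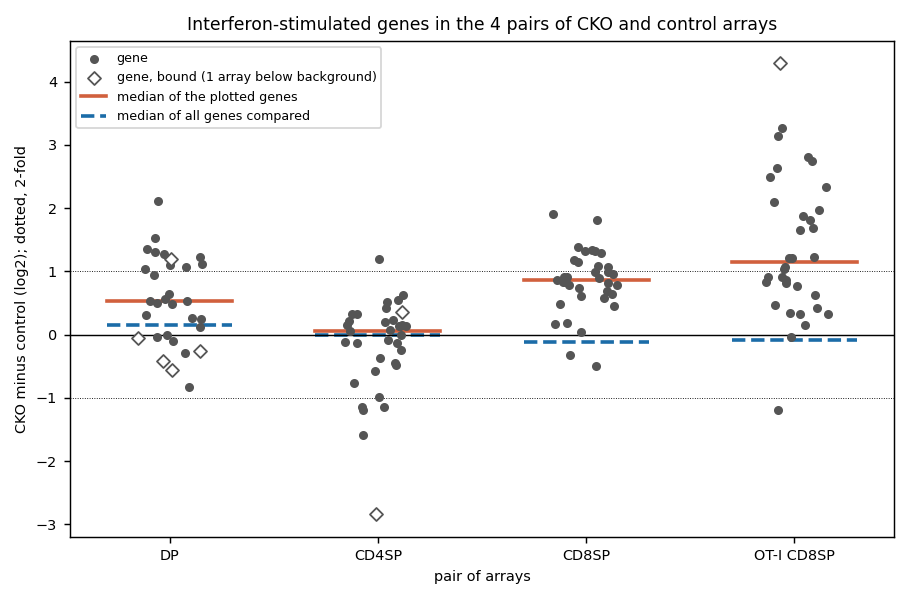
CKO minus control log2 difference of each interferon-stimulated gene detected on at least 1 array of the pair, in the 4 pairs; diamonds are bounds, the solid orange line is the median of the points and the dashed blue line the median of all genes compared. The medians are 0.54, 0.059, 0.87 and 1.14 from left to right, and the points of the CD4SP pair reach farthest below 0.

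Whether the genotype difference was larger in the CD8SP-gated pairs was tested directly. The difference between those pairs and the DP and CD4SP pairs was positive for 32 of 35 genes with a median of 0.87, and limma called 0 of the 35 and 0 of all genes, with 7 of the 35 at an unadjusted p below 0.05 (15.1% of all genes). Of the genes detected on all 9 arrays, Ifi27l2a (2.40 ± 1.12, adjusted p = 0.371) and Oas1a (2.10 ± 1.07, adjusted p = 0.397) had the largest values. The mature thymocyte list moved with genotype, with 17 of 17 genes positive and a median of 1.09. Its medians were 1.15, 0.19, 1.34 and 1.47 in the DP, CD4SP, CD8SP and OT-I pairs, the same order as the interferon-stimulated genes. The list includes the MHC class I genes H2-K1, H2-D1 and H2-Q7 beside genes not chosen as interferon-induced. Its order without those MHC class I genes was not tested. None of the 17 was called. The DP-stage list had medians of 0.13, 1.17, -0.75 and -3.07 in the same pairs. Markers of other cells differed in the pairs too. In the DP, CD4SP, CD8SP and OT-I pairs, granulocyte markers had medians of -3.40, -0.75, 0.088 and 0.70, from 2 to 5 genes. Erythroid markers had 1.55, -1.14, 0.70 and 2.16, from 3 or 4 genes. Conventional dendritic markers had -0.26, -0.68, 0.54 and 0.080, with 9 of 9 positive in the CD8SP pair and 0 of 8 in the CD4SP pair. On the DP arrays S100a8 lay at 1.33 and -4.17 and S100a9 at 2.71 and -2.88. The plasmacytoid dendritic list, of cells that make type I interferon, includes Bst2, which is also 1 of the 35 genes. Its medians were 0.31, -1.0, 0.91 and 0.20 in the same order of pairs. In the CD4SP pair 4 of 8 genes were more than 2-fold lower in the CKO, and in the CD8SP pair 4 of 8 more than 2-fold higher. Ccr9, among the latter at 4.88 and 5.88, was highest on the DP arrays (7.03 and 7.32). Ccr9 and Siglech were detected on all 9 arrays. In the CD4SP pair 4 of 4 NK and NKT markers compared were more than 2-fold lower. Klrb1c lay at 1.41 on the control and -3.96 on the CKO array, and Klra8 at 1.54 and -5.26, and both were well above background on the CD4SP control array alone. The part of these stage and cell markers in the genotype differences was not tested.

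Other genes of the pathway were taken from lists chosen by name. Of 49 tested interferon-induced genes outside the 37, 13 rose from DP to CD4SP and 12 from DP to CD8SP, and none fell. From CD4SP to TCRβ-negative cells 6 fell. Of all genes tested, 2.16% and 2.42% were called higher in the first 2 comparisons and 1.17% lower in the last. For genotype 0.281% of all genes were called in either direction. Phf11d rose by 4.76 ± 0.48 and 4.76 ± 0.48, Phf11b by 4.6 ± 0.37 and 4.47 ± 0.37, and Nlrc5, which drives MHC class I genes, by 3.48 ± 0.46 and 3.17 ± 0.46. Ifit1bl1, Gbp5, Ifi204, Ifi47 and Slfn8 were also called in both comparisons, Gbp9 and Parp9 in CD4SP and Tor3a in CD8SP cells, with differences of 1.77 to 4.40. Gbp8 (-0.99 ± 0.40), Gbp4 (-0.79 ± 0.32) and Lgals9 (-0.47 ± 0.61) had the lowest CD8SP differences and were not called. Ccl5 and Cxcl10, a pair of chemokines, rose by 2.99 ± 0.44 and 2.96 ± 0.46 in CD4SP and by 5.37 ± 0.44 and 4.13 ± 0.46 in CD8SP cells. The 6 that fell in TCRβ-negative cells were Ccl5, Cxcl10, Ifit3b, Nlrc5, Phf11b and Phf11d. Of these, Cxcl10 and Ifit3b were not detected on the TCRβ-negative array and were at least 8.02-fold and 14.3-fold lower. For genotype 0 of the 49 were called, 40 were positive and the median was 0.53, with Ccl5 (1.99 ± 0.31, adjusted p = 0.118), Cxcl10 (1.91 ± 0.33, adjusted p = 0.136) and Ifit1bl1 (1.90 ± 0.46, adjusted p = 0.254) highest, Cxcl10 being detected on 7 of 9 arrays and Ifit1bl1 on 6, and Ifitm3 (-1.36 ± 0.28, adjusted p = 0.191), Parp12 (-0.51 ± 0.31) and Phf11b (-0.30 ± 0.26) lowest.

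Of the receptors, Ifnar1, Ifnar2, Ifngr1 and Ifngr2 were detected on all 9 arrays and Ifnlr1, of the lambda interferons, on 0. Ifnar1 lay at 1.75 and 1.73 on the DP arrays, 2.28 and 2.15 on the CD4SP arrays, 1.34 and 1.74 on the CD8SP arrays, 2.20 and 2.72 on the OT-I arrays and 1.90 on the TCRβ-negative array, with differences of 0.48 ± 0.29 and -0.20 ± 0.29. None of these 4 was called in any comparison. Of the ligands, Ifnb1 and Ifne were well above background on 0 arrays, Ifnk on 1 and Ifng on 6. Ifng, the ligand of the other receptor, lay at -4.87 and -1.88 on the DP arrays, 1.11 and 0.56 on the CD4SP arrays, -0.82 and 2.72 on the CD8SP arrays, -2.89 and 0.056 on the OT-I arrays and -5.54 on the TCRβ-negative array. Its genotype difference was not called, and no size is given. In the kinase and transcription factor list Irf4 rose in CD4SP (3.46 ± 0.57) and Irf8, which dendritic cells also express strongly, in CD8SP cells (3.28 ± 0.37), each 1 of 10. Irf5 (3.52 ± 0.75, adjusted p = 0.0706) was not called, and was detected on 7 of 9 arrays. Jak1 (0.80 ± 0.22), Tyk2 (0.85 ± 0.20) and Irf2 (0.77 ± 0.23) had the largest genotype differences of that list and Irf5 (-0.55 ± 0.53) the lowest, with 0 called.

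Among 10 negative regulators, Samhd1, which depletes nucleotides, rose by 6.27 ± 0.57 and 4.77 ± 0.57, and Cish, a feedback inhibitor of cytokine receptors, by 4.92 ± 0.38 and 4.26 ± 0.38. Socs1, which blocks the receptor kinases, lay at 5.40 and 5.84 on the DP arrays, 4.50 and 4.82 on the CD4SP arrays, 3.55 and 3.83 on the CD8SP arrays, 3.04 and 3.37 on the OT-I arrays and 5.35 on the TCRβ-negative array. It fell by 1.93 ± 0.25 from DP to CD8SP (limma adjusted p = 0.0196), and its CD4SP difference was -0.96 ± 0.25 (adjusted p = 0.12). Samhd1 and Cish were called lower in TCRβ-negative than in CD4SP cells, Samhd1 at -8.88 ± 0.72 and Cish, not detected on the TCRβ-negative array, by at least 71.2-fold. Among the upstream sensors and adaptors Sting1, the adaptor of DNA sensing, rose by 3.20 ± 0.42 and 2.70 ± 0.42, and Ikbke, a kinase that activates Irf3 and Irf7, rose in CD4SP cells by 2.04 ± 0.28. Ikbke also fell from CD4SP to TCRβ-negative cells, at -3.22 ± 0.36. Myd88 (0.93 ± 0.27) was highest after Sting1 and Ikbke (1.28 ± 0.28) in the CD8SP comparison, and Ticam1 (-0.30 ± 0.32), Tlr9 (-0.30 ± 0.31) and Tbk1 (-0.25 ± 0.25) were lowest, without a call. Ikbke had the largest genotype difference of its list (1.16 ± 0.20, adjusted p = 0.139), before Sting1 (0.60 ± 0.30) and Myd88 (0.53 ± 0.19), and Cgas (-0.25 ± 0.45), Mavs (0.022 ± 0.23) and Tlr9 (0.049 ± 0.22) the smallest. Among the negative regulators Socs3 (0.84 ± 0.35), Samhd1 (0.72 ± 0.40) and Adar (0.70 ± 0.24) were highest for genotype and Irf2bp1 (-0.085 ± 0.22), Ptpn6 (0.076 ± 0.19) and Pias1 (0.077 ± 0.18) lowest. For genotype 0 of either list were called.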

How the data were processed

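The authors deposited 1 scanner file per array, with spot intensity in 1 colour from Agilent Feature Extraction 10.7.1.1 (array design 028005), background-subtracted and detrended per the file headers. They also deposited a table of intensity divided by each array's 75th percentile. The labels' protocols describe a biotin label, while the files are of Cy3. Here log2 of the processed intensity was taken minus the array's 75th percentile, control spots and 144 outlier probes of 55681 were left out, and 26715 probes were named by RefSeq accession. Of several probes for a gene, the brightest on average was used. The number of arrays, 1 per group, limits the precision.

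limma 3.58.1 (R 4.3.3) fitted population and genotype over all 9 arrays, with 3 residual degrees of freedom, and a second fit added the difference in genotype effect between CD8SP-gated and other pairs. Benjamini-Hochberg adjustment ran over 20282 genes and unnamed transcripts detected on at least 2 arrays. The fit was run on simulated data with noise capped at that of the median gene and with large genotype differences. That run did not cover noisier genes, smaller differences or slide effects. Members, lists and tests were chosen with earlier results of these data known. Genes named with every array's value were those called in any fit and the 5 largest differences per comparison. Of the pathway lists the text names called genes and the 3 largest differences each way. Tables were made with Python 3.11.15.

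Alternatives were other scalings (75th percentile of detected probes, quantile, normexp with offset 50), detection filters, averaged probes, slide as a block, a trended prior, the deposited table and arrays left out. Mx1 and Mx2 were not analysed here.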

Additional observations from a re-analysis of the deposited data

How the results depend on the processing

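The number of calls moved with the processing more than the differences did. Positive CD4SP minus DP differences numbered 34 to 35 of the members over 21 settings, CD8SP minus DP 33 to 34, and genotype 27 to 33 over 24 settings. With the 75th percentile of detected probes, 11 members were called from DP to CD4SP, 5 from DP to CD8SP, 0 between CD8SP and CD4SP and 2 lower in TCRβ-negative than CD4SP cells, and 6 and 18 were over 2-fold higher in the DP and CD8SP pairs. Quantile normalization gave 0 calls between CD8SP and CD4SP, 0 for TCRβ-negative minus CD4SP, and 7 in the DP pair. Normexp with quantile normalization gave medians of 1.44 (CD8SP minus DP) and -2.23 (TCRβ-negative minus CD4SP), 14 calls in the latter and 3 in the DP pair. Slide as a block gave 5, 0, 0 and 0 calls for CD4SP minus DP, CD8SP minus DP, CD8SP minus CD4SP and TCRβ-negative minus CD4SP. A trended prior gave 26, 25 and 19 for the first, second and last of these, and 1 for genotype. TCRβ-negative minus CD4SP had 8 calls with no detection filter, 8 with detection on at least 5 arrays and 9 with averaged probes. Of all 20282 genes tested, the 75th percentile of detected probes called 331 higher from DP to CD4SP and 292 from DP to CD8SP. The main scaling called 439 and 491, and slide as a block 210 and 0. Between CD8SP and CD4SP cells, quantile normalization called 43 of all genes higher and 22 lower, and slide as a block called 0 either way. For TCRβ-negative minus CD4SP, quantile normalization and slide as a block each called 0 of all genes either way. Totals over all genes for the other counts of this section are not given here. At 1.5-fold the CD4SP and CD8SP pairs had 2 and 27 higher. The cause of these changes was not tested.

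Leaving out arrays, single arrays being chosen after seeing the data, gave a CD4SP minus DP median of 2.10 to 3.02 with 0 to 26 calls, 0 to 22 calls for CD8SP minus DP, and a CD8SP minus CD4SP median of -0.99 to 0.17 with 0 to 1 calls. The OT-I minus CD8SP median was -1.30 to -0.46, TCRβ-negative minus CD4SP -3.05 to -2.20 with 0 to 13 calls, the difference in genotype effect 0.41 to 1.19, and the genotype median 0.37 to 0.89. Apol9b changed sign between CD8SP and CD4SP without the CD4SP control array, at 0.085, and lay at -2.14 without the CD4SP CKO array. Totals over all genes for the fits with arrays left out are not given here. A contrast has no value without the population it compares. No paired analysis was possible because each group has 1 array, so no replicate number pairs arrays across groups; the population term already sets each CKO array against its control.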
